A study of Mus musculus with 18 samples.

Results

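The livers of septic mice that breathed hydrogen gas were compared with the livers of septic mice that did not, as 3 H2 libraries against 3 control libraries out of the 18 libraries of the series. The 6 libraries were chosen by their titles and by nothing measured in them. Both groups were male C57BL/6 mice, 9 weeks old, and both underwent cecal ligation and puncture (CLP), in which the tied and pierced cecum leaks gut bacteria into the abdomen. H2 mice inhaled 7% hydrogen without a break from the end of surgery and were kept together in a special box, so gas and housing cannot be told apart. Control mice had CLP alone, and all livers were taken 24 h after surgery. Sham-operated mice are not analysed here, so no level can be set against a liver without sepsis. The labels do not say that libraries of 1 group came from separate animals, and p-values then measure only the spread between these samples. Messenger RNA was read as FPKM, the number of sequenced fragments of a gene divided by its transcript length and by the depth of the library, which allows genes to be compared within a library.

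The liver clears bacteria and their products from portal blood and at the same time runs the bulk of the body's metabolism. Kupffer cells are the resident macrophages of its sinusoids, which are lined by a fenestrated endothelium rich in scavenger receptors. In sepsis hepatocytes shift their transcription toward acute-phase plasma proteins, driven largely by interleukin-6 and STAT3, and the genes of bile transport, drug metabolism and fuel handling are commonly turned down. Molecular hydrogen has been studied as a scavenger of reactive oxygen species and as an anti-inflammatory agent. The series set out to describe what the gas does to inflammatory gene expression in septic organs.

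The libraries had the make-up of liver. The 16 hepatocyte markers summed to 44590 to 55500 FPKM in control and 45690 to 52410 FPKM in H2, with albumin (Alb) the tallest of them in 5 libraries. The 13 markers of other organs summed to 65.5 to 91.6 FPKM in control and 81.1 to 124 FPKM in H2, which overlapped. Of these markers 4 were high enough to test. The pancreatic genes Cpa1 and Pnlip were at 0 in all 6 libraries, the only 2 of that list. Erythroid markers summed to 42.0 to 47.9 FPKM in control and 42.6 to 48.5 FPKM in H2, which overlapped. The lung secretoglobin Scgb1a1 measured 4.30 FPKM in control 1 and 5.07 FPKM in H2 1 and was listed at 0 in the other libraries, and its part in any result was not tested. The depth implied by genes at 1 fragment lay between 10162000 and 13122000 fragments per library, so a low FPKM rests on few fragments.

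One control library stood apart from the other controls. The root mean square difference of log2(FPKM + 1) over the 10041 tested genes was 0.690 between controls 1 and 2, 0.582 between controls 2 and 3 and 0.523 between controls 1 and 3. Control 2 lay nearer to the H2 libraries, at 0.381 to 0.435, and the H2 libraries differed from each other by 0.372 to 0.471. Control 2 was nearer to the H2 mean than to the mean of the other 2 controls at 7271 genes (72.4%), against 3122 genes (31.1%) for control 1 and 2676 genes (26.7%) for control 3. Its labels place it in the control group and it was kept there. Whether its label, or a difference in the severity of sepsis, accounts for this was not tested. Counts of called members in the lists described, and the adjusted p of most genes whose p is printed, are therefore given also from the fit without control 2. Where control 2 lies on the H2 side of the mean of controls 1 and 3, leaving it out widens the difference by itself. At many genes this also narrows the spread. A2m, described below, instead went from -1.17 ± 0.15 to -1.12 ± 0.15 on the log2 scale, yet its adjusted p fell. An adjusted p also depends on the other tested genes, of which 2812 passed without control 2. The values without control 2 are therefore a description of what that library carries and add no support.

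Only 2 of the 10041 genes passed an adjusted p of 0.05 in limma, both higher in H2 (0.0199%), and 0 were lower. At an unadjusted p under 0.05 there were 2113 genes. Cd300lg, which encodes a receptor of the CD300 family on endothelial cells, was one of the 2. It measured 0.662, 0.606 and 0.530 FPKM in control and 2.95, 2.65 and 2.81 FPKM in H2. The control values were tightly bunched, the H2 values were too, and the groups were far apart. Testing required a mean of 1 FPKM over the 6 libraries, and this gene reached it only through its H2 values. Control values this low rest on few fragments. The rise was 1.25 ± 0.11 on the log2(FPKM + 1) scale (mean ± SE, n = 3 per group, adjusted p = 0.0383), from 0.599 ± 0.0663 FPKM in control and 2.80 ± 0.152 in H2. Control 2 sat with the other controls at this gene, and the adjusted p was 0.00132 without it. Leaving out any other single library ended the call, with adjusted p of 0.133 without control 1, 0.123 without control 3, 0.257 without H2 1, 0.310 without H2 2 and 0.412 without H2 3, while the log2 difference stayed between 1.22 and 1.28. In limma without the filter on mean FPKM the adjusted p of Cd300lg was 0.0544, and at a pseudocount of 0.1 it was 0.0723. Cd300lg lies on chromosome 11 from 102041509 to 102055620 on the plus strand (mm10). The other genes named below missed the threshold at adjusted p of 0.0837 or more in the fit of all 6 libraries, and their values are given as measurements. Over all tested genes, every H2 library lay above every control at 1222 (12.2%) and below every control at 1315 (13.1%). Without control 2, 1477 genes passed as higher in H2 (14.7%) and 1335 as lower (13.3%). These 4 shares are the background for the counts of list members below, and the median log2 difference of all tested genes was -0.02. The list counts and medians, like these shares, include genes that passed the filter only through the group where they were high.

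Among the lists with 8 or more tested members, Kupffer cell genes had the largest share of members whose groups did not overlap. Of 18 markers, 13 were higher in every H2 library than in any control, 1 was lower, and 4 overlapped, with a median log2 difference of 0.69. Clec4f, a galactose-binding lectin found on Kupffer cells, measured 6.63, 5.83 and 3.85 FPKM in control and 13.5, 18.6 and 19.2 FPKM in H2. Control 1 was the highest control and H2 1 the lowest H2 library, and the groups were well apart. The difference was 1.501 ± 0.21 (adjusted p = 0.126, and 0.00637 without control 2). Vsig4, the complement receptor with which these cells bind opsonised bacteria, measured 2.13, 6.91 and 2.85 FPKM in control and 18.7, 24.9 and 16.0 FPKM in H2. Cd5l, a secreted scavenger protein also called AIM, measured 8.23, 19.9 and 12.3 FPKM in control and 61.5, 57.5 and 41.5 FPKM in H2. At both genes control 2 was the highest of the controls but stayed well under the lowest H2 library, and the differences were 2.17 ± 0.35 for Vsig4 and 1.97 ± 0.31 for Cd5l (adjusted p = 0.128 and 0.128, and 0.00099 and 0.00178 without control 2). Timd4, a receptor for phosphatidylserine on dying cells, measured 0.796, 2.17 and 1.36 FPKM in control and 3.38, 4.44 and 2.65 FPKM in H2. Its groups did not overlap, though control 2 and H2 3 came close. In bulk tissue, fewer cells of a type and less RNA per cell cannot be told apart, here and in what follows.

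The 3 genes of complement C1q, the recognition unit of the classical pathway, were all apart. C1qa measured 23.9, 31.1 and 27.3 FPKM in control and 37.0, 35.4 and 37.8 FPKM in H2. C1qb measured 35.1, 29.2 and 34.6 FPKM in control and 51.7, 54.3 and 51.8 FPKM in H2. C1qc measured 21.7, 26.0 and 23.6 FPKM in control and 43.8, 40.2 and 37.3 FPKM in H2. In C1qb and C1qc the controls lay close together, and in all 3 genes the H2 libraries did. At C1qa control 2 lay nearer to H2 2 than to control 1. The haemoglobin scavenger receptor Cd163 (2.44 ± 0.964 FPKM in control and 5.07 ± 0.662 in H2), the folate receptor Folr2 (3.03 ± 0.676 FPKM in control and 5.80 ± 1.39 in H2), the ficolin Fcna (14.3 ± 3.14 FPKM in control and 24.0 ± 2.52 in H2), the iron exporter ferroportin Slc40a1 (9.94 ± 1.69 FPKM in control and 19.9 ± 6.44 in H2), the macrophage antigen Adgre1 (2.92 ± 0.503 FPKM in control and 5.15 ± 0.730 in H2), and the growth factor receptor Csf1r (5.14 ± 0.233 FPKM in control and 8.195 ± 1.18 in H2) were also higher in every H2 library. Spic, the transcription factor that haem induces in iron-recycling macrophages, went the other way, at 6.56, 4.04 and 7.16 FPKM in control and 2.82, 3.06 and 2.56 FPKM in H2. Marco, a scavenger receptor for bacteria, was the most abundant gene of the list and overlapped, at 151, 92.3 and 133 FPKM in control and 132, 79.5 and 79.0 FPKM in H2. The 18 markers summed to 413 to 461 FPKM in control and 501 to 602 FPKM in H2, which did not overlap, although Marco and Id3, the most abundant members, overlapped. Without control 2, 13 passed as higher and 1 as lower of the list, and the 1 lower was Spic.

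**Figure D1:**
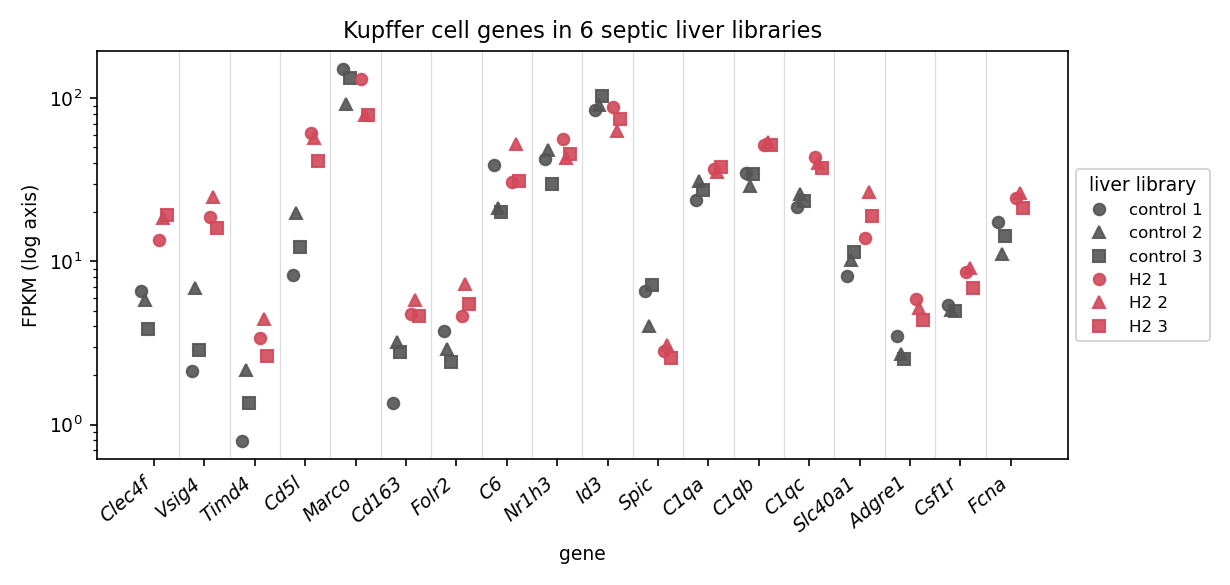
FPKM (log axis) of the 18 Kupffer cell genes in each liver library, grey for control, red for H2, with the marker shape giving the replicate number. For 13 genes all red points lie above all grey points, for Spic all lie below, and Marco, C6, Nr1h3 and Id3 overlap; control 2 (grey triangles) lies among the other controls for Clec4f, Adgre1 and Csf1r.

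The promoters of 4 of these genes are shown because the genes lay apart together. Macrophage genes are commonly bound by the ETS factor PU.1, whose site is the purine-rich PU box with the letters GAGGAA, and the 250 bases before each RefSeq start (GRCm38.p6) were searched for it on both strands, with matches in capitals. The windows are chr6:83656117-83656366 on the minus strand for Clec4f, chrX:96293439-96293688 on the minus strand for Vsig4, chr3:87357631-87357880 on the plus strand for Cd5l and chr4:136892915-136893164 on the minus strand for C1qc.

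Clec4f: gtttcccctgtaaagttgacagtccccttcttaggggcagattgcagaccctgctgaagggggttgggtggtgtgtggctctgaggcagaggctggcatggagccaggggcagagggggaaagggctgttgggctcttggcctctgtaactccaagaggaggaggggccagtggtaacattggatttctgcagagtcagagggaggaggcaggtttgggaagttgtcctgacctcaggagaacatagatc
Vsig4: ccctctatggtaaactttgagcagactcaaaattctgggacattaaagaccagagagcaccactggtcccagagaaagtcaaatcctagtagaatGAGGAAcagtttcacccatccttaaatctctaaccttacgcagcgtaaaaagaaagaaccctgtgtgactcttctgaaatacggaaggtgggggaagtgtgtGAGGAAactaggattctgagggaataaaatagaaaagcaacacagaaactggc
Cd5l: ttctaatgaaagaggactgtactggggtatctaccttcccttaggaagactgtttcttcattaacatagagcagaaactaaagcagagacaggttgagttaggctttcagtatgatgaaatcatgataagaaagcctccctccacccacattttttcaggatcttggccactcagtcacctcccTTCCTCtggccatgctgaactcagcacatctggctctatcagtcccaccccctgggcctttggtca
C1qc: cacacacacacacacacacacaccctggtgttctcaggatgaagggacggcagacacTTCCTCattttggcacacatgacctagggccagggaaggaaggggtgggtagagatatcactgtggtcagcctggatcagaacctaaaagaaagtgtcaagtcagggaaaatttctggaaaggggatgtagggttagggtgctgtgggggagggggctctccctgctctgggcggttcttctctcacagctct

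Vsig4 held 2 matches, Cd5l and C1qc 1 each, both as the reverse complement TTCCTC, and Clec4f held 0. Of all 32851 promoter windows of this length, 7639 (23.3%) held the letters, so a match is common and is a description of the sequence alone.

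Monocyte and recruited macrophage genes and neutrophil genes leaned the other way by their medians, while most tested members of both lists overlapped. Of 14 monocyte and recruited macrophage markers 8 were tested, 3 were lower in every H2 library and 0 were higher, with a median log2 difference of -0.41. Cd14, the co-receptor for lipopolysaccharide, which hepatocytes also make in sepsis, measured 807, 229 and 705 FPKM in control and 99.2, 57.7 and 63.2 FPKM in H2. Controls 1 and 3 were high, control 2 was intermediate and the H2 libraries were low (-2.81 ± 0.48, adjusted p = 0.131, and 0.00082 without control 2). The chitinase-like protein gene Chil3 (7.06 ± 2.83 FPKM in control and 2.60 ± 0.916 in H2) and Plac8 (53.9 ± 13.5 FPKM in control and 28.8 ± 9.31 in H2) were also lower in every H2 library. At Plac8 control 2, at 38.4 FPKM, lay just above H2 1, at 37.2 FPKM. Lyz2, the lysozyme of myeloid cells, overlapped at 18.9, 17.6 and 13.9 FPKM in control and 19.1, 22.2 and 16.6 FPKM in H2. The whole list summed to 879 to 1555 FPKM in control and 562 to 701 FPKM in H2. Most of that gap was Cd14, so the sum does not speak for the other members. Of 16 neutrophil markers 8 were tested, 1 was higher in every H2 library and 0 were lower in every one. The median log2 difference of the neutrophil list was -0.46. In each of the 2 lists 6 of the 8 tested members had a lower mean in H2. Neutrophil markers summed to 129.6 to 353 FPKM in control and 106 to 207 FPKM in H2, which overlapped, and S100a8 measured 178, 58.0 and 118 FPKM in control and 94.9, 48.5 and 79.1 FPKM in H2. Prtn3, the granule protease proteinase 3, was the 1 neutrophil gene higher in every H2 library, at 0.196, 0.401 and 0.535 FPKM in control and 2.09, 3.36 and 2.73 FPKM in H2 (1.43 ± 0.17, adjusted p = 0.0881, and 0.00402 without control 2). It passed the filter only through H2. Lymphocyte and NK cell markers were near the floor, with summed levels of 3.63 to 3.91 FPKM in control and 1.40 to 3.03 FPKM in H2. Of the monocyte list the fit without control 2 called 0 higher and 3 lower, and of the neutrophil list 1 higher and 2 lower.

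Sinusoidal endothelial genes were mostly higher in H2. Control 2 lay nearer to the H2 mean than to the mean of controls 1 and 3 at 10 of the 11 members where these means were at least 0.5 apart in log2. The share over all tested genes with such a gap was 85.2%. Of 14 markers 13 had a higher mean in H2, 5 were apart, and the median log2 difference was 1.02, the highest of the lists with 8 or more tested members. Clec4g, the sinusoidal lectin LSECtin, measured 0.871, 6.02 and 1.82 FPKM in control and 11.7, 24.7 and 35.6 FPKM in H2. The H2 libraries differed widely among themselves and still lay above every control (2.78 ± 0.55, adjusted p = 0.147, and 0.00413 without control 2). Mrc1, the mannose receptor, measured 0.817, 3.74 and 1.41 FPKM in control and 8.14, 5.33 and 6.72 FPKM in H2. Stab2, a scavenger receptor for hyaluronan, measured 1.46, 1.90 and 1.88 FPKM in control and 2.89, 2.39 and 2.56 FPKM in H2. The angiocrine ligand Bmp2, which induces hepcidin in hepatocytes, measured 0.311, 1.72 and 0.844 FPKM in control and 2.72, 3.13 and 3.82 FPKM in H2. These 3 were apart as well, with differences of 1.48 ± 0.35, 0.40 ± 0.12 and 1.17 ± 0.26. Fcgr2b, the inhibitory Fc receptor that clears immune complexes, overlapped because of control 2, at 7.99, 25.4 and 13.2 FPKM in control and 36.3, 22.6 and 30.7 FPKM in H2. The same held for Dnase1l3 (2.31 ± 2.48 FPKM in control and 6.05 ± 1.05 in H2) and Oit3 (5.42 ± 4.81 FPKM in control and 10.4 ± 3.80 in H2). Lyve1, the hyaluronan receptor of sinusoidal and lymphatic endothelium, was the exception, at 38.5, 9.16 and 34.6 FPKM in control and 9.94, 15.5 and 17.4 FPKM in H2, with controls 1 and 3 high and control 2 the lowest of all. The 14 markers summed to 63.3 to 97.0 FPKM in control and 115 to 154 FPKM in H2. Without control 2, 11 passed as higher and 1 as lower of the list, and the 1 lower was Lyve1 (adjusted p = 0.00882, log2 -1.33 ± 0.23).

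Of 20 tested pan-endothelial genes 10 were higher and 1 was lower in every H2 library, with a median log2 difference of 0.31. Cd300lg, which passed the filter only through H2, is 1 of the 10. Kdr, the main VEGF receptor, measured 0.483, 1.97 and 0.973 FPKM in control and 2.82, 2.81 and 3.88 FPKM in H2. Ptprb, the endothelial tyrosine phosphatase VE-PTP, measured 0.701, 2.41 and 1.18 FPKM in control and 4.71, 4.09 and 5.26 FPKM in H2. Plvap, the protein of endothelial diaphragms, measured 10.3, 12.3 and 12.7 FPKM in control and 16.9, 16.5 and 17.3 FPKM in H2. The differences were 1.01 ± 0.26, 1.28 ± 0.25 and 0.49 ± 0.12, with adjusted p of 0.167, 0.147 and 0.167, and of 0.00512, 0.00192 and 0.0214 without control 2. Cdh5 (VE-cadherin) overlapped at 9.30 ± 4.64 FPKM in control and 5.501 ± 1.32 in H2, and Esam was lower in every H2 library at 8.26 ± 1.92 FPKM in control and 5.07 ± 0.858 in H2. Nos3, the endothelial nitric oxide synthase, measured 3.09, 0.660 and 2.92 FPKM in control and 1.10, 0.671 and 0.619 FPKM in H2, with only controls 1 and 3 high. Of the pan-endothelial list the fit without control 2 called 9 higher and 3 lower.

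Genes of endothelial activation and of the switch between clotting and fibrinolysis were lower. Of 14 genes 8 were tested, 7 had a lower mean in H2, 5 were apart below and 1 was apart above, with a median log2 difference of -1.20. Selp, the P-selectin that catches leukocytes, measured 8.79, 2.68 and 14.8 FPKM in control and 0.901, 1.13 and 0.750 FPKM in H2. The order was controls 1 and 3, then control 2, then H2, without overlap (-2.11 ± 0.48, adjusted p = 0.167, and 0.00104 without control 2). Thbd and Procr, which together generate activated protein C, measured 10.5 ± 4.52 FPKM in control and 3.66 ± 0.640 in H2 and 5.46 ± 2.40 FPKM in control and 1.74 ± 0.361 in H2. Icam1, a ligand of leukocyte integrins, was lower by less, at 31.2, 31.7 and 38.6 FPKM in control and 25.7, 23.2 and 23.8 FPKM in H2. Tfpi, the inhibitor of the tissue factor pathway, was the 1 gene apart above, at 1.12, 2.26 and 2.05 FPKM in control and 3.53, 3.34 and 3.06 FPKM in H2. The summed levels were 87.1 to 93.9 FPKM in control and 109 to 133 FPKM in H2 for the pan-endothelial list and 77.7 to 248 FPKM in control and 46.8 to 57.5 FPKM in H2 for the activation list. Hepatic stellate cell genes were apart above at 3 of 10 tested members, among them Colec11, a collectin, at 1.90, 3.37 and 2.14 FPKM in control and 5.66, 7.67 and 6.82 FPKM in H2. Of the activation list the fit without control 2 called 1 higher and 6 lower, and of the stellate cell list 4 higher and 0 lower.

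Several abundant hepatocyte products, Alb, Ttr and Apoa1, overlapped between the groups. Alb measured 21978, 9335 and 13730 FPKM in control and 15860, 12070 and 11670 FPKM in H2. Controls 1 and 2 were the highest and the lowest of the 6, and the difference of -0.11 ± 0.30 had no stable sign: it was 0.21 without control 1. Transthyretin (Ttr) and apolipoprotein A-I (Apoa1) differed by 0.20 ± 0.18 and 0.15 ± 0.17, and the master regulator Hnf4a measured 165, 139.9 and 145 FPKM in control and 119.6, 142 and 134 FPKM in H2. Of 16 hepatocyte markers 3 were apart above and 0 below, with a median log2 difference of 0.17. The asialoglycoprotein receptor subunit Asgr2 was one of them, at 29.4, 55.7 and 27.5 FPKM in control and 61.6, 57.7 and 69.3 FPKM in H2, and apolipoprotein H (Apoh) another, at 935 ± 158 FPKM in control and 1313 ± 27.2 in H2. Among 17 tested hepatocyte transcription factors 3 were apart above and 1 below. Nr1i3, the xenobiotic sensor CAR, measured 4.52, 12.2 and 1.48 FPKM in control and 22.2, 28.6 and 26.2 FPKM in H2 and had the widest difference of them (2.23 ± 0.54, adjusted p = 0.167, and 0.00277 without control 2). The related sensor Nr1i2, known as PXR, measured 11.2, 15.6 and 7.27 FPKM in control and 19.1, 17.9 and 17.4 FPKM in H2. Nr1h4, the bile acid receptor FXR, measured 41.1, 46.2 and 27.0 FPKM in control and 58.8, 48.3 and 50.2 FPKM in H2. Of the hepatocyte markers the fit without control 2 called 3 higher and 1 lower, and of the transcription factors 6 higher and 0 lower.

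Genes of the liver's 2 metabolic zones did not divide by zone. Around the portal tract 4 of 11 tested markers were apart above and 1 below, and around the central vein 5 of 11 were above and 1 below. In the pericentral list Lect2, a secreted hepatokine, measured 25.2, 46.7 and 16.1 FPKM in control and 87.3, 110.4 and 84.8 FPKM in H2. Cyp2e1, the ethanol-oxidising P450, measured 856, 642 and 617 FPKM in control and 1074, 1440 and 1097 FPKM in H2, and control 2 lay with the other controls. Gulo, the last enzyme of vitamin C synthesis, measured 22.5, 20.3 and 9.34 FPKM in control and 40.1, 45.7 and 34.3 FPKM in H2. All 3 were apart above. Glul, the glutamine synthetase of the cells next to the central vein, went the other way, at 178, 39.1 and 136 FPKM in control and 36.2, 36.7 and 38.5 FPKM in H2. Control 2 and the 3 H2 libraries lay within 36.2 and 39.1 FPKM, and controls 1 and 3 were far above them (-1.39 ± 0.51, adjusted p = 0.204, and 0.00079 without control 2). Of the periportal list the fit without control 2 called 5 higher and 1 lower, and of the pericentral list 4 higher and 2 lower.

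Bile acid transporters were mostly higher in H2. Of 12 tested transport genes 6 were apart above and 1 below, with a median log2 difference of 0.43. Slc10a1 encodes NTCP, the sodium-driven uptake carrier for bile acids, and measured 22.4, 48.1 and 16.1 FPKM in control and 93.9, 81.6 and 91.0 FPKM in H2. Slco1b2, an organic anion carrier of the same membrane, measured 30.2, 108 and 18.8 FPKM in control and 186, 175 and 200.4 FPKM in H2. The H2 libraries were close to each other, controls 1 and 3 were far below them, and control 2 lay between. Differences were 1.73 ± 0.36 and 2.21 ± 0.57 (adjusted p = 0.154 and 0.167, and 0.00086 and 0.00079 without control 2). On the canalicular side, Abcb11, the bile salt export pump, measured 3.28, 16.6 and 2.63 FPKM in control and 29.5, 20.0 and 29.3 FPKM in H2. Abcc2, the pump for conjugated bilirubin, measured 13.9, 28.0 and 9.50 FPKM in control and 34.9, 39.2 and 37.7 FPKM in H2. Abcb4, the phospholipid floppase, measured 11.2, 17.5 and 7.37 FPKM in control and 19.9, 26.1 and 22.5 FPKM in H2. Control 2 was again the highest control in each and below the lowest H2 library. Slc51b, a subunit of the exporter that returns bile acids to blood, was the 1 gene apart below, at 2.13, 1.11 and 2.95 FPKM in control and 0.248, 0.927 and 0.327 FPKM in H2. Without control 2, 6 passed as higher and 1 as lower of the list.

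Among bile acid synthesis genes 7 of 15 tested were apart above and 0 below (median log2 0.43). Cyp7a1, the rate-limiting enzyme of the classical pathway, was too low to test, with 0.0190, 0 and 0 FPKM in control and 0.07, 0.0210 and 0.0230 FPKM in H2. Cyp8b1, which sets the cholic acid share, measured 1.67, 0.830 and 0.652 FPKM in control and 2.63, 3.36 and 3.20 FPKM in H2. The reductase Akr1d1 measured 2.16, 2.197 and 1.24 FPKM in control and 7.51, 4.73 and 9.52 FPKM in H2. Hsd3b7 measured 53.5, 92.0 and 74.5 FPKM in control and 126, 129 and 119 FPKM in H2. These differed by 1.01 ± 0.20, 1.503 ± 0.25 and 0.79 ± 0.20. Klb, the co-receptor that lets hepatocytes respond to the gut hormone FGF15, measured 0.877, 2.73 and 0.727 FPKM in control and 6.09, 5.74 and 6.25 FPKM in H2. Its H2 libraries lay close together, and control 2 was the highest control (1.61 ± 0.28, adjusted p = 0.131, and 0.00060 without control 2). Of the synthesis list the fit without control 2 called 7 higher and 1 lower.

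**Figure D2:**
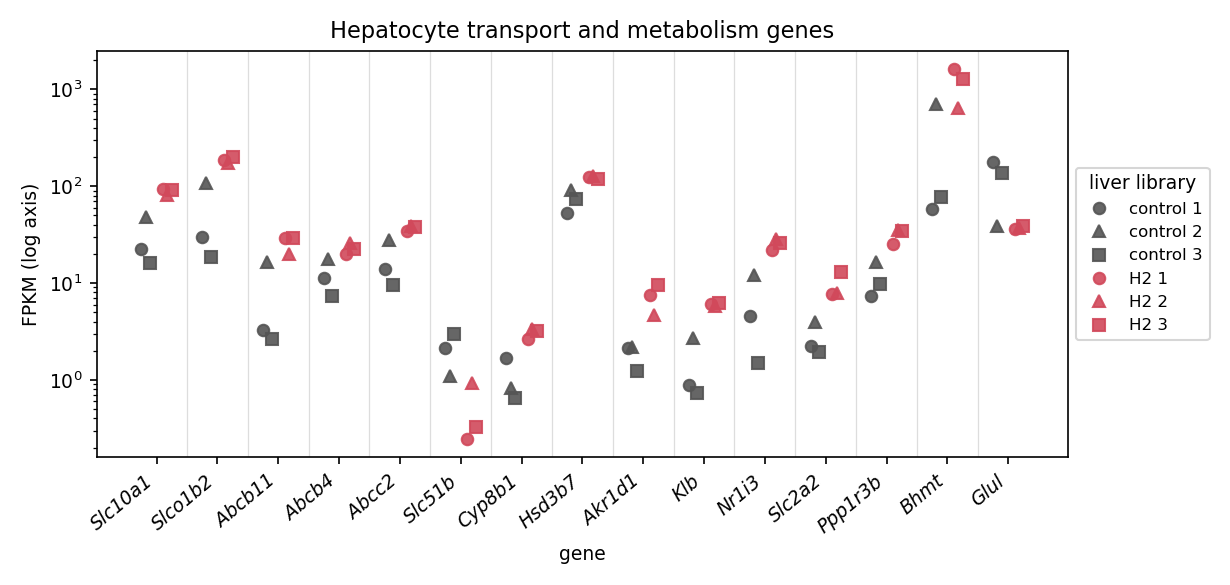
FPKM (log axis) of 15 hepatocyte genes of bile transport, bile acid synthesis, sugar and amino acid handling in each liver library, grey for control, red for H2, shapes for the replicate number. Control 2 (grey triangles) lies between the other controls and the H2 libraries for Slc10a1, Slco1b2, Abcb11, Abcc2 and Nr1i3, and with the H2 libraries for Glul and Bhmt.

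Drug-metabolising enzymes other than P450s were apart above at 12 of 21 tested members and below at 1, with a median log2 difference of 0.84. Aox3, an aldehyde oxidase, measured 1.22, 0.951 and 0.370 FPKM in control and 4.51, 7.53 and 6.01 FPKM in H2, with control 2 among the controls (1.93 ± 0.23, adjusted p = 0.0881, and 0.00413 without control 2). Fmo5, a flavin monooxygenase, measured 6.21, 30.0 and 4.79 FPKM in control and 45.6, 43.8 and 41.9 FPKM in H2. Adh4, an alcohol dehydrogenase that also oxidises retinol, measured 14.8, 33.9 and 9.35 FPKM in control and 68.4, 48.3 and 65.2 FPKM in H2. The 3 H2 libraries were above every control in each. The glucuronosyltransferase Ugt2b34 measured 20.9 ± 12.8 FPKM in control and 47.7 ± 7.04 in H2, but near-identical copies of the Ugt2b cluster may share fragments, as in the Cyp2c, Cyp4a, Saa and Serpina3 clusters. Xdh, the xanthine dehydrogenase that can yield superoxide, was the 1 gene apart below, at 33.4, 25.1 and 28.6 FPKM in control and 23.4, 18.9 and 21.5 FPKM in H2. Of 22 tested P450 and xenobiotic receptor genes 7 were apart above and 0 below (median log2 0.21). Cyp3a13 (60.2 ± 20.6 FPKM in control and 103 ± 6.65 in H2) and Cyp2d26 (189 ± 99.5 FPKM in control and 317 ± 4.87 in H2) were among them. The classical drug enzyme Cyp3a11 overlapped, at 196, 23.2 and 113 FPKM in control and 43.0, 76.8 and 52.6 FPKM in H2, and control 2 was its lowest library. Cyp1a2 at 40.3, 5.24 and 18.7 FPKM in control and 10.7, 16.5 and 7.16 FPKM in H2 and Cyp2c29 at 108, 19.6 and 40.6 FPKM in control and 69.1, 33.2 and 65.8 FPKM in H2 also had control 1 highest and control 2 lowest, and the sign of all 3 turned when 1 control was left out. Of the enzymes other than P450s the fit without control 2 called 11 higher and 4 lower, and of the P450 list 7 higher and 2 lower.

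Genes of glucose output and glycogen were apart above at 6 of 14 tested members and below at 1, and glycolysis and hypoxia genes at 0 above and 6 below of 15. The list medians were 0.58 and -0.27. Slc2a2, the hepatocyte glucose carrier GLUT2, measured 2.24, 3.99 and 1.92 FPKM in control and 7.75, 7.90 and 12.97 FPKM in H2 (1.51 ± 0.26, adjusted p = 0.131, and 0.00390 without control 2). Ppp1r3b, which targets a phosphatase to glycogen, measured 7.38, 16.4 and 9.83 FPKM in control and 25.6, 34.9 and 34.9 FPKM in H2. G6pc, the last step of glucose release, measured 19.9, 26.4 and 7.88 FPKM in control and 35.1, 28.8 and 47.3 FPKM in H2. Each of these 3 had all H2 libraries above all controls. Pck1, the entry enzyme of gluconeogenesis, overlapped at 232, 380.3 and 119 FPKM in control and 330.2, 560.4 and 461 FPKM in H2. Fbp1, the fructose bisphosphatase of the same pathway, was lower, at 1621, 821 and 1841 FPKM in control and 577, 798 and 564 FPKM in H2. Among the glycolysis genes, the activator Pfkfb3 measured 26.4, 10.02 and 30.0 FPKM in control and 4.20, 5.62 and 4.99 FPKM in H2. Hif1a, the oxygen-regulated transcription factor, measured 48.5, 25.7 and 47.8 FPKM in control and 14.4, 16.3 and 15.0 FPKM in H2. Pkm, the pyruvate kinase of non-hepatocyte and dividing cells, measured 38.7, 17.3 and 23.6 FPKM in control and 17.2, 8.50 and 10.1 FPKM in H2. In all 3 the H2 libraries lay below control 2, which lay below controls 1 and 3, with differences of -1.84 ± 0.38, -1.31 ± 0.25 and -1.07 ± 0.34. Without control 2, 0 passed as higher and 7 as lower of this list. Of the glucose and glycogen list that fit called 7 higher and 2 lower.

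Fatty acid oxidation genes separated the libraries in a way that did not follow the treatment. Of 23 genes 3 were apart above and 1 below (median log2 0.43). Cyp4a14, an omega-hydroxylase and a textbook target of PPARα, measured 5.64, 93.3 and 4.11 FPKM in control and 87.5, 5.34 and 110.2 FPKM in H2. Control 2, H2 1 and H2 3 were high and the other 3 libraries were low. Vnn1, a pantetheinase, repeated the pattern at 5.94, 44.0 and 4.48 FPKM in control and 43.8, 14.3 and 33.9 FPKM in H2. Ehhadh of peroxisomal oxidation did so too, at 13.2, 39.5 and 4.83 FPKM in control and 33.0, 13.5 and 35.6 FPKM in H2, and so did Acot1, an acyl-CoA thioesterase, at 0.497, 3.27 and 0.18 FPKM in control and 2.88, 0.503 and 6.20 FPKM in H2, and Cyp4a10 at 18.6, 35.7 and 7.77 FPKM in control and 36.0, 7.996 and 34.7 FPKM in H2. The bile acid gene Cyp7b1 had the mirror image, at 104, 25.8 and 95.8 FPKM in control and 18.7, 111 and 15.0 FPKM in H2, with control 2, H2 1 and H2 3 low. Apart from Cyp4a14, these genes were picked after their values were seen. The groups differed by -0.99 ± 0.83 at Cyp7b1 and 1.43 ± 1.43 at Cyp4a14, and the adjusted p of the 6 genes ran from 0.387 to 0.817. Acadm, which oxidises medium-chain acyl-CoA, had the same 3 libraries highest over a narrower range, at 65.3, 144 and 64.8 FPKM in control and 164, 113 and 160.1 FPKM in H2. Cpt1a, the gate of mitochondrial import, measured 67.4, 51.2 and 40 FPKM in control and 52.0, 56.4 and 54.5 FPKM in H2, with control 1 the highest and control 3 the lowest of the 6. Of the oxidation list the fit without control 2 called 10 higher and 1 lower.

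**Figure D3:**
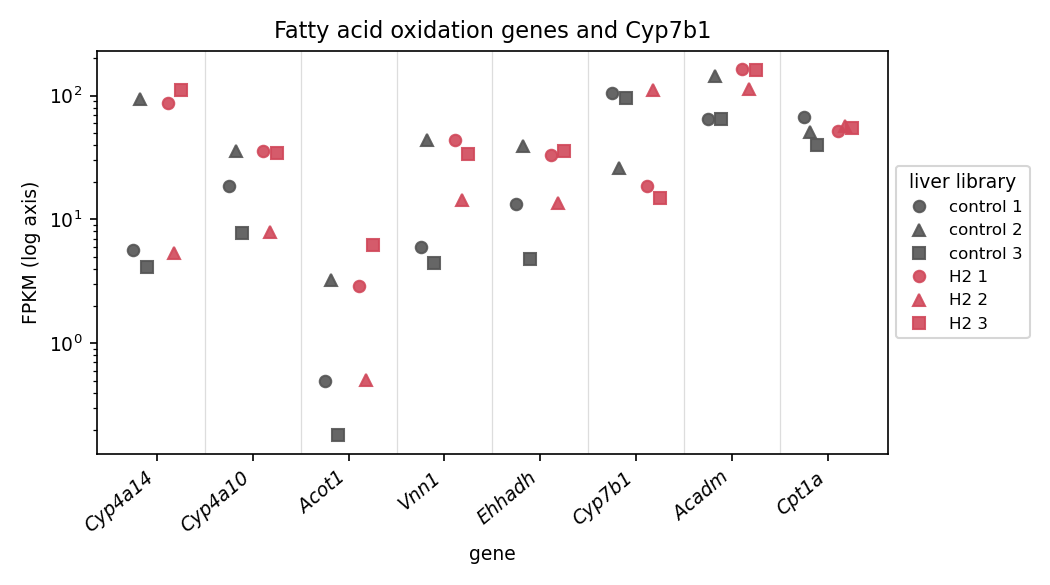
FPKM (log axis) of 7 fatty acid oxidation genes and of Cyp7b1 in each liver library, grey for control, red for H2, shapes for the replicate number. For Cyp4a14, Vnn1, Acot1 and Ehhadh control 2 (grey triangle), H2 1 (red circle) and H2 3 (red square) are the 3 highest points, and for Cyp7b1 they are the 3 lowest.

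Lipid synthesis genes showed little separation. Of 16 tested genes of fatty acid and triglyceride synthesis 2 were apart above, the desaturase Fads1 (29.3 ± 7.58 FPKM in control and 41.4 ± 2.62 in H2) and the elongase Elovl5 (27.5 ± 5.77 FPKM in control and 40.8 ± 3.48 in H2), and 0 below. Fasn, the fatty acid synthase, measured 13.3, 9.87 and 12.7 FPKM in control and 11.2, 10.5 and 8.86 FPKM in H2. Of 20 cholesterol synthesis and uptake genes 1 was apart above, 0 were apart below and 19 overlapped, with a median log2 difference of -0.06. Without control 2, 1 passed as higher and 5 as lower of the list. Of the fatty acid and triglyceride list that fit called 4 higher and 2 lower.

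Amino acid and nitrogen genes were apart above at 5 of 24 and below at 2 (median log2 0.41). Hpd and Hgd, enzymes of tyrosine breakdown, measured 124 ± 47.0 FPKM in control and 246 ± 13.3 in H2 and 27.4 ± 16.2 FPKM in control and 63.5 ± 4.18 in H2. Glud1, the glutamate dehydrogenase, measured 89.5, 123 and 88.2 FPKM in control and 157, 195 and 185 FPKM in H2. All 3 had every H2 library above every control. Cps1, the entry enzyme of the urea cycle, overlapped through control 2, at 75.2, 106 and 35.5 FPKM in control and 162, 104 and 131 FPKM in H2, and Arg1, the last step of the cycle, was lower in every H2 library, at 1759, 1310 and 1456 FPKM in control and 1051, 1303 and 1191 FPKM in H2. Bhmt, which methylates homocysteine with betaine, had the largest fold of the list, at 57.6, 711 and 77.2 FPKM in control and 1614, 636 and 1283 FPKM in H2. Controls 1 and 3 were far below the rest, and control 2 lay above H2 2, so the groups overlapped (2.89 ± 0.92, adjusted p = 0.177, and 0.00164 without control 2). Without control 2, 12 passed as higher and 4 as lower of the list.

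In the growth hormone axis 3 of 14 tested genes were apart above and 1 below. Igfbp1, a stress-induced binding protein of IGF-1, was lower, at 729.8, 282 and 694 FPKM in control and 88.4, 266 and 211 FPKM in H2. Igfals, the subunit that stabilises circulating IGF-1, was higher, at 2.08, 2.40 and 0.852 FPKM in control and 3.79, 3.25 and 4.54 FPKM in H2. The growth factor Igf1 itself, made mainly by hepatocytes, overlapped, at 151, 78.5 and 104 FPKM in control and 86.5, 102 and 71.1 FPKM in H2. The H2 libraries lay within the range of the controls or just under it. Socs2, a feedback target of growth hormone signalling, measured 34.9, 1.55 and 15.6 FPKM in control and 1.37, 2.82 and 2.55 FPKM in H2, with controls 1 and 3 high and control 2 among the H2 libraries. Of this axis the fit without control 2 called 3 higher and 4 lower.

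Acute-phase proteins divided into those at like levels and those that were lower. Of 30 genes 2 were apart above and 10 below (median log2 -0.08). The serum amyloid A genes Saa1 and Saa2 measured 71030 ± 9019 FPKM in control and 74390 ± 2898 in H2 and 80520 ± 9338 FPKM in control and 81960 ± 5492 in H2. Haptoglobin (Hp) measured 27491, 26210 and 26560 FPKM in control and 28550, 25848 and 24400 FPKM in H2. These 3 differed by 0.07 ± 0.12, 0.03 ± 0.12 and -0.03 ± 0.10, with no stable sign over the other settings. The iron hormone hepcidin (Hamp) overlapped as well, at 4536, 8225 and 6804 FPKM in control and 7152, 5791 and 7478 FPKM in H2. The 3 fibrinogen chains were all apart below, with Fga at 19990, 12290 and 17590 FPKM in control and 11040, 11310 and 10650 FPKM in H2, Fgb at 28420 ± 6524 FPKM in control and 19611 ± 1003 in H2 and Fgg at 22470 ± 4447 FPKM in control and 16010 ± 1173 in H2. Their differences of -0.57 ± 0.18, -0.51 ± 0.18 and -0.47 ± 0.17 passed without control 2 (adjusted p = 0.00882, 0.0160 and 0.0179). A2m, a broad protease inhibitor, measured 363, 434 and 409 FPKM in control and 165, 209 and 161 FPKM in H2, and control 2 was its highest library (-1.17 ± 0.15, adjusted p = 0.0990, and 0.00443 without control 2). Serpina3f, another protease inhibitor, had the widest difference of all list members, at 182, 22.9 and 259 FPKM in control and 5.63, 4.06 and 4.89 FPKM in H2 (-4.17 ± 0.82, adjusted p = 0.147, and 0.00026 without control 2). On the receptor side, Osmr, for oncostatin M, was lower at 9.09, 7.96 and 9.03 FPKM in control and 4.54, 4.47 and 4.98 FPKM in H2, while Lifr and Il6ra were higher at 6.99 ± 1.76 FPKM in control and 9.97 ± 0.780 in H2 and 7.36 ± 0.988 FPKM in control and 10.4 ± 1.67 in H2. The transcription factor Stat3 was lower, at 76.0, 51.0 and 72.3 FPKM in control and 43.4, 46.6 and 43.6 FPKM in H2. Of the acute-phase list the fit without control 2 called 4 higher and 10 lower.

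Of 24 tested cytokine and chemokine genes 11 were apart below and 1 above (median log2 -0.98). The interleukin-1 receptor antagonist Il1rn measured 286, 125 and 300 FPKM in control and 53.5, 36.5 and 39.2 FPKM in H2 (-2.35 ± 0.35, adjusted p = 0.126, and 0.00076 without control 2). Il6 measured 6.28, 0.869 and 4.91 FPKM in control and 0.158, 0.0970 and 0.205 FPKM in H2. Ccl2, which draws monocytes, measured 65.8, 13.6 and 42.6 FPKM in control and 10.7, 3.00 and 3.94 FPKM in H2, and Ccl5 measured 30.2, 8.38 and 25.3 FPKM in control and 1.93, 0.267 and 4.24 FPKM in H2. Controls 1 and 3 were high at these genes, control 2 was intermediate and H2 was low. Il10, the anti-inflammatory cytokine, differed from them in that control 2 lay with the other controls, at 3.53, 2.64 and 2.07 FPKM in control and 0.821, 0.0770 and 0.164 FPKM in H2. Il6 and Il10 passed the filter only through control. Ccl6, a CC chemokine of macrophages, was the 1 gene apart above, at 20.8, 29.3 and 29.1 FPKM in control and 62.5, 58.3 and 49.4 FPKM in H2. Immediate early genes were apart below at 10 of 18 and above at 0 (median log2 -0.59), for example Ier2 at 19.1, 11.8 and 19.9 FPKM in control and 6.91, 7.11 and 7.13 FPKM in H2 and Maff, a small MAF factor, at 4.74, 2.44 and 4.43 FPKM in control and 0.832, 0.458 and 0.701 FPKM in H2. Interferon response genes were apart below at 5 of 12 (median log2 -0.97), among them Irf7 at 102, 45.7 and 51.9 FPKM in control and 25.0, 15.0 and 30.8 FPKM in H2 and Isg15 at 183, 30.8 and 63.0 FPKM in control and 18.97, 7.34 and 21.7 FPKM in H2, where control 1 stood far above the rest. Without control 2, 1 passed as higher and 13 as lower of the cytokine list. That fit called 0 higher and 12 lower of the immediate early list and 0 higher and 6 lower of the interferon list.

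Stress genes were apart below at 5 of 14 and above at 1. Atf4, the hub of the integrated stress response, measured 159, 101.2 and 179 FPKM in control and 82.4, 89.9 and 83.9 FPKM in H2. Trib3 and Gdf15, both induced by it, measured 5.37 ± 1.77 FPKM in control and 2.48 ± 0.490 in H2 and 7.06 ± 4.01 FPKM in control and 2.45 ± 0.492 in H2, and the pro-apoptotic gene Bax measured 37.2, 27.7 and 32.0 FPKM in control and 22.5, 23.0 and 21.5 FPKM in H2. The chaperone Hspa5 of the endoplasmic reticulum was the 1 above, at 624, 822 and 719 FPKM in control and 836, 851 and 835 FPKM in H2 (0.23 ± 0.13, adjusted p = 0.339, and 0.0780 without control 2). Among 14 metal and haem genes, metallothionein 1 (Mt1) was lower at 5982, 5417 and 6774 FPKM in control and 4709, 5038 and 4821 FPKM in H2. Blvrb, a biliverdin reductase, was higher at 65.8, 74.7 and 77.9 FPKM in control and 99.8, 147 and 109.6 FPKM in H2. Id1, a target of BMP signalling, was lower at 10.7, 19.8 and 17.6 FPKM in control and 10.5, 7.17 and 7.10 FPKM in H2, whereas Bmp2 was higher and Hamp overlapped. Clock and glucocorticoid target genes mostly overlapped, with 1 apart in each direction of 11 and of 10. Tsc22d3, the glucocorticoid-induced leucine zipper GILZ, was the 1 above, at 7.59, 17.7 and 5.70 FPKM in control and 20.5, 18.9 and 21.2 FPKM in H2, and the clock output factor Hlf was the 1 above in its list, at 2.82 ± 0.816 FPKM in control and 4.71 ± 0.460 in H2. Of the stress list the fit without control 2 called 0 higher and 8 lower, of the metal and haem list 2 higher and 3 lower, of the clock list 3 higher and 0 lower and of the glucocorticoid list 1 higher and 0 lower.

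**Figure D4:**
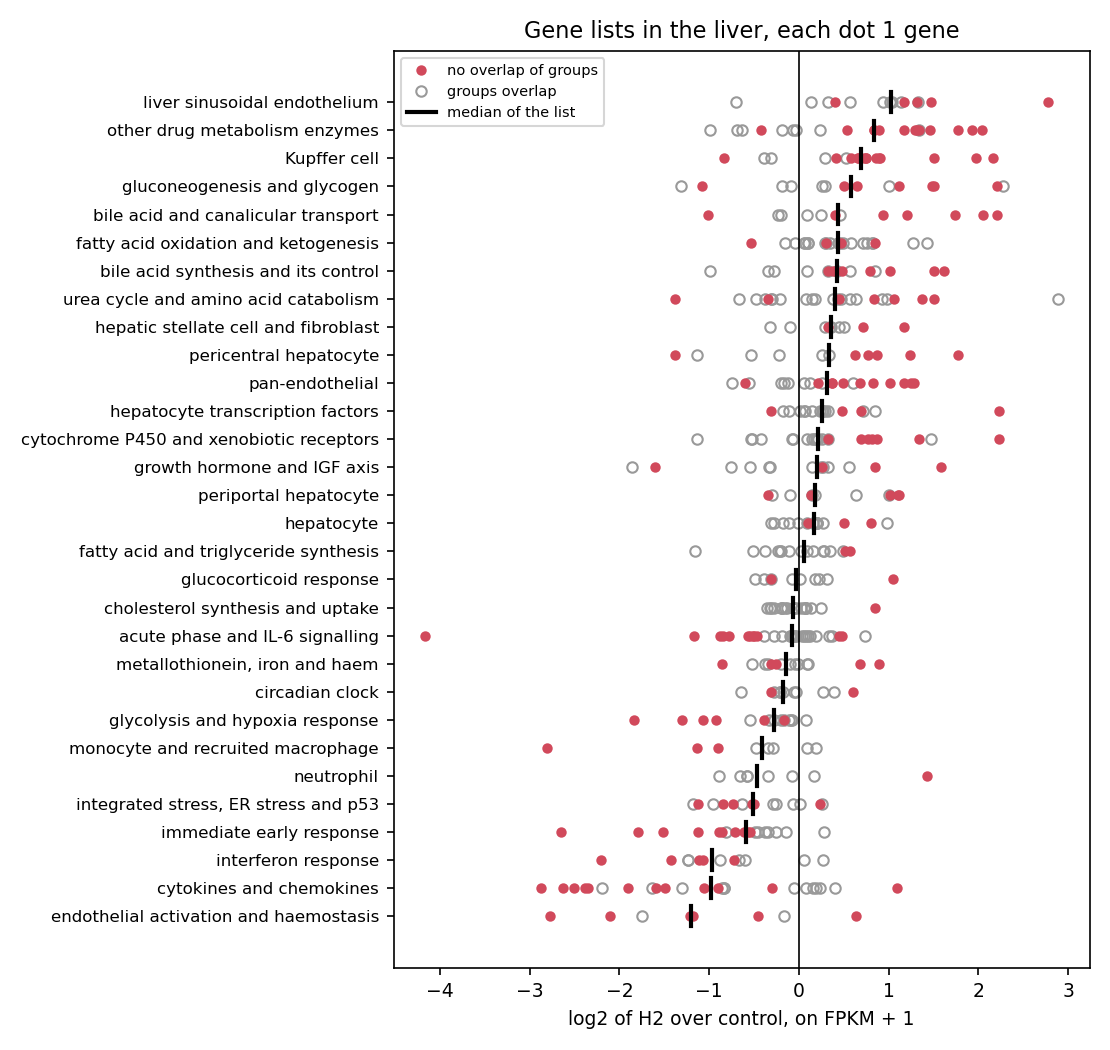
Log2 of H2 over control on FPKM + 1 for each tested gene of the lists with 8 or more tested members. Filled red dots are genes whose groups did not overlap, open grey dots genes whose groups did, and the black bar is the list's median, which runs from 1.02 for sinusoidal endothelium to -1.20 for endothelial activation, with 0.69 for Kupffer cells.

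Among single genes outside the lists, those with the smallest p and no overlap were as follows. Higher in H2 were Cd300ld, a receptor of the CD300 family on myeloid cells, at 1.07, 1.19 and 0.764 FPKM in control and 3.36, 3.35 and 3.23 FPKM in H2, and Tcea3, a transcription elongation factor, at 2.66, 2.35 and 1.96 FPKM in control and 5.54, 6.55 and 5.81 FPKM in H2. Gatm, the first enzyme of creatine synthesis, measured 0.520, 0.956 and 0.604 FPKM in control and 2.16, 2.13 and 2.38 FPKM in H2, and Akr1c6, a hydroxysteroid dehydrogenase, 10.2, 16.4 and 3.81 FPKM in control and 66.2, 71.4 and 83.8 FPKM in H2. The cell cycle inhibitor Cdkn2c (1.83 ± 0.245 FPKM in control and 3.85 ± 0.185 in H2) and the kinase Dmpk (1.62 ± 0.257 FPKM in control and 3.60 ± 0.352 in H2) were higher too. Their differences ran from 0.78 ± 0.11 for Cdkn2c to 2.93 ± 0.43 for Akr1c6. Lower in H2 were Sgms1, a sphingomyelin synthase, at 26.5, 21.6 and 27.6 FPKM in control and 10.4, 10.3 and 10.4 FPKM in H2, and Rtn4rl2, of the Nogo receptor family, at 7.14, 5.93 and 6.24 FPKM in control and 2.10, 2.499 and 2.65 FPKM in H2. Acvr1b, an activin receptor, measured 22.0, 15.3 and 24.8 FPKM in control and 7.23, 7.81 and 7.81 FPKM in H2, and Nrg4, a ligand of the ErbB4 receptor, 22.6, 27.4 and 21.7 FPKM in control and 10.5, 13.3 and 11.5 FPKM in H2. The BMP modulator Bmper (11.5 ± 2.67 FPKM in control and 4.41 ± 0.456 in H2), the secreted protease inhibitor family member Wfdc2 (38.8 ± 4.37 FPKM in control and 20.8 ± 0.808 in H2) and the homeobox repressor Tgif1 (10.5 ± 0.976 FPKM in control and 5.77 ± 0.0397 in H2) were lower as well. In these 7 lower genes the H2 libraries were close to one another, and the adjusted p ran from 0.0837 for Sgms1 to 0.126 for Nrg4. Without control 2 these were 0.00089 for Sgms1 and 0.00579 for Nrg4, and 0.00192 for Akr1c6.

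The controls varied more among themselves than the H2 libraries did. The median SD of log2(FPKM + 1) was 0.209 in control and 0.127 in H2, and 7309 of 10041 genes (72.8%) had the larger SD in control. An SD above 0.5 was seen at 1111 genes in control and at 235 in H2. By list, the larger SD was in control at 24 of 24 amino acid genes and 14 of 14 sinusoidal endothelial genes. It was so at 21 of 22 P450 and receptor genes and 20 of 21 other drug enzymes. Kupffer genes, at 13 of 18, were near the share of all tested genes. Growth hormone axis genes stood at 9 of 14 and stress genes at 8 of 14. The widest control ranges among list members were 4.21 at Cyp4a14, 3.82 at Socs2, 3.61 at Csf3, 3.60 at Bhmt and 3.44 at Serpina3f, in log2(FPKM + 1). Csf3, the granulocyte growth factor, measured 17.6, 0.528 and 10.8 FPKM in control and 0.240, 0 and 0.156 FPKM in H2. At Socs2, Csf3 and Bhmt control 2 was near the H2 libraries and controls 1 and 3 were not, at Serpina3f it lay between, and at Cyp4a14 it matched only H2 1 and H2 3.

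The place of control 2 was measured gene by gene as a share of the gap from the mean of controls 1 and 3, set to 0, to the mean of H2, set to 1. Over the 2736 tested genes with a gap of at least 0.5 in log2, control 2 was past the middle at 2331 (85.2%), past the H2 mean at 683 and under 0.25 of the gap at 148. All of the list members with such a gap were past the middle in fatty acid oxidation (15 of 15), cholesterol synthesis (8 of 8) and bile transport (8 of 8), as were 17 of 19 in amino acid metabolism and 10 of 11 in sinusoidal endothelium. Kupffer genes were placed otherwise, with 4 of 15 past the middle and 8 of 15 under 0.25. These 8 were Clec4f, C1qb, C1qc, Folr2, Slc40a1, Adgre1, Csf1r and Fcna. At these genes control 2 lay on the side of the other controls, as it did at Cd300lg, Aox3, Prtn3, Il10 and A2m. At Fcna and C1qb it lay beyond both other controls, at -0.83 and -0.43 of the gap. The list members share libraries and were compared by counts alone, and whether the lists differ in this was not tested.

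**Figure D5:**
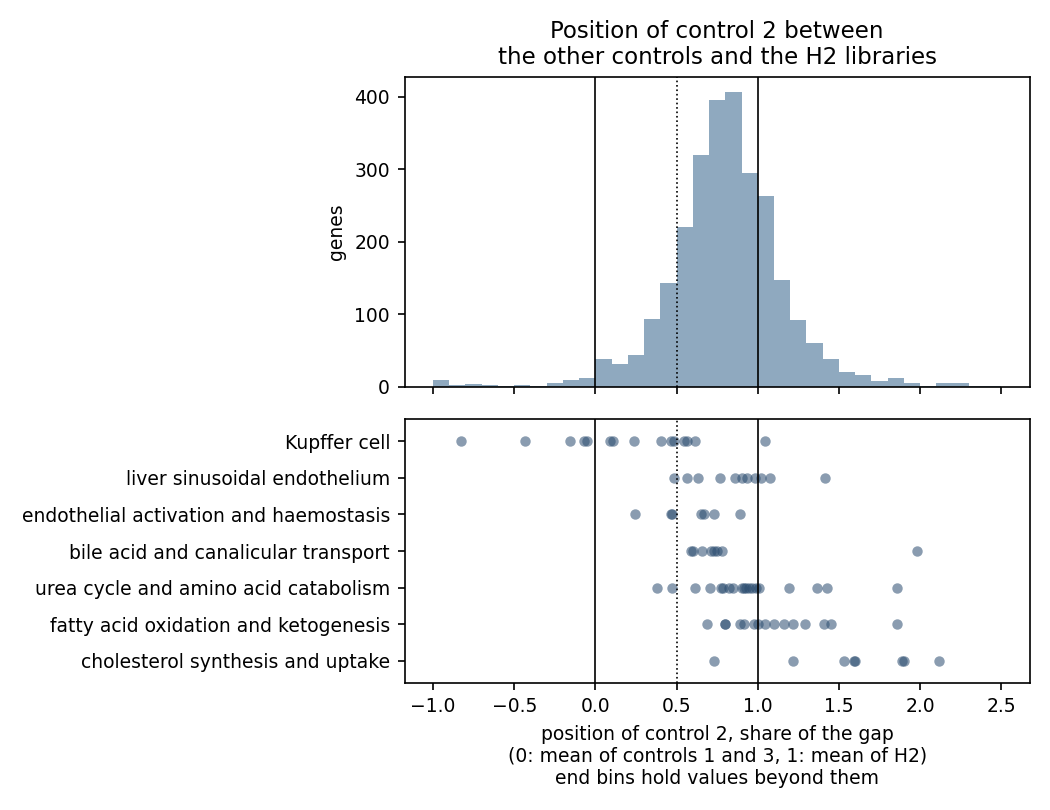
Position of control 2 between the mean of controls 1 and 3 (0) and the mean of the H2 libraries (1), as a histogram over the 2736 tested genes with a gap of at least 0.5 in log2(FPKM + 1) and as 1 dot per gene for 7 lists; the dotted line marks the middle. Most genes lie past the middle, whereas 11 of the 15 Kupffer genes do not, and 7 of 8 cholesterol genes lie beyond 1.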

How the data were processed

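The RNA of 3 control and 3 H2 liver samples from septic mice was extracted with miRNeasy columns and made into TruSeq stranded mRNA libraries, per the labels' protocols. The deposited values are FPKM that the authors computed, 1 column per library, for 24346 gene symbols. The submitters' processing notes name Cufflinks 2.2.1, SAMtools 0.1.19, TopHat2 2.0.13 with Bowtie2 2.2.3, and the mm10 build. The annotation and any scaling across libraries are not given in the sources used here. Groups follow the sample titles. For H2 replicates 2 and 3 the description spells the gas with a different digit, taken here for a slip. In a lung file, 1 column of values that no label explains was not used.

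The 10041 genes whose FPKM averaged 1 or more over the 6 liver libraries were transformed to log2(FPKM + 1) and fitted by limma 3.58.1 under R 4.3.3 (empirical Bayes with trend, two-sided, Benjamini and Hochberg over all tested genes, called under 0.05). FPKM are not counts, so no count model was used. The pseudocount of 1 understates the change of low genes. Genes such as Cd300lg, Prtn3, Aox3, Gatm and Bmp2, with a control mean under 1 FPKM, passed the filter only through H2. Il10, Il6 and Csf3, with an H2 mean under 1 FPKM, passed it only through control. An exact permutation test of 3 against 3 libraries cannot go below p = 0.1. The fit was tested on simulated data.

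The lists, 35 with 561 genes of which 457 were tested, and the members named were chosen with earlier results of these data known. The rule for names takes the called genes, the 10 uncalled genes per direction with the smallest p and no overlap, up to 3 genes of each list by p, a fixed panel of 30 genes, and the 5 list members with the widest control range. Further list members were named after their values were seen. A few of the genes so chosen are not reported here. Values are given in the order of replicates 1, 2 and 3.

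FPKM hold no counts, and depth was implied from the FPKM of genes at 1 fragment, so no counting interval is given. Positions are from GENCODE vM21 and promoters from RefSeq. The alternatives tried were pseudocounts of 0.1 and 5, no filter and a mean of at least 5, quantile and median-of-ratios scaling, other empirical Bayes settings, array weights, a replicate block, all 18 libraries in 1 fit, and each library left out.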

Additional observations from a re-analysis of the deposited data

How the results depend on the processing

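The limma count of 2 called genes was 0 at a pseudocount of 0.1, without a filter and at a mean FPKM of at least 5 (2115, 2748 and 1300 genes at an unadjusted p under 0.05), 1 after quantile normalization, 2520 with array weights (1342 higher, 1178 lower), which gave control 2 a weight of 0.25 against 0.848 to 2.63 for the others, and 445 with all 18 libraries in 1 fit (281 higher, 164 lower). Leaving out 1 library gave 0 to 2812 calls, and the upper end was the fit without control 2; without control 3 there were 3, without H2 1 there was 1, and without control 1, H2 2 or H2 3 there were 0 (1157 to 1307 at an unadjusted p under 0.05). The same-numbered libraries deviated together with correlations of 0.332, -0.0799 and 0.0347, and only 1 of the 3 controls correlated best with its own number, so no pairing was assumed, and the replicate block gave 0 calls (1914 at an unadjusted p under 0.05). The adjusted p of Cd300lg lay between 0.00132 and 0.412 over the settings that tested it (not at a mean of at least 5), and its log2 difference stayed above 0. Pseudocount 5, median-of-ratios scaling and the other empirical Bayes settings kept a count of 2. The share of genes with the larger SD in control lay between 72.6% and 75.2%. Of 180 tested genes taken by the rule or added to it, 169 held their sign in every setting. Under quantile normalization Alb turned to 0.15 and Hp to 0.17. With 1 library left out, log2 differences ran from -0.41 to 0.21 for Alb, from -0.0067 to 0.23 for Apoa1, from -1.40 to 0.12 for Cyp3a11, from -0.11 to 0.26 for Cpt1a, from -0.14 to 0.28 for Hamp, from -0.23 to 0.98 for Cyp4a10, from -1.26 to 0.098 for Cyp1a2, from -0.31 to 0.89 for Cyp2c29, from -0.020 to 0.16 for Saa1, from -0.058 to 0.11 for Saa2 and from -0.091 to 0.022 for Hp. Causes were not tested. With 3 libraries a group and the depth given above, levels under 1 FPKM are the least certain.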

Other observations

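Genes of bile duct cells and of cell division overlapped between the groups wherever they were high enough to test. Of 9 cholangiocyte markers 5 were tested, and all 5 overlapped. Spp1, osteopontin, measured 58.8, 34.97 and 41.2 FPKM in control and 50.6, 52.3 and 32.9 FPKM in H2. Of 19 proliferation genes 6 were tested, and all 6 overlapped. Pcna, the clamp of DNA replication, measured 29.8, 16.2 and 29.2 FPKM in control and 17.0, 18.2 and 17.1 FPKM in H2, with control 2 the lowest of all and controls 1 and 3 the highest. Its adjusted p in limma was 0.301, and 0.00455 without control 2, when it was the 1 gene of these lists to pass. The other 13 proliferation genes had a mean under 1 FPKM and were not tested.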
